A study of Mus musculus with 8 samples.

Results

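Brain leukocytes of WT mice with chronic colitis were compared with those of WT control mice. The study sorted CD45.2+ cells from mouse brain and profiled them by droplet-based single-cell RNA sequencing in 8 libraries, 1 for each of 4 gut conditions in WT and in APPNL-G-F mice, a knock-in model of amyloid deposition. Both WT libraries came from the C57BL/6J strain at a labelled age of 16 weeks. Control mice drank only water. Mice with chronic colitis received 2% dextran sulfate sodium (DSS), a polymer that damages the colon lining, for 5 days and then water alone for 5 days, in 3 such cycles. Animals were perfused with PBS, leukocytes were enriched on Percoll, and an antibody with an oligonucleotide tag (a hashtag) marked each sample before the sort and pooling. Both WT libraries compared here hold 4 hashtags, and the labels do not say which animal stands behind a hashtag, so hashtag groups are used below only to show the spread inside a library. A cell was a barcode with at least 500 unique molecular identifiers (UMIs, 1 per captured transcript), at least 200 genes, at most 5% mitochondrial UMIs, and a top hashtag of at least 50 counts and at least 3 times the second. By this rule the comparison rests on 12074 of the 46314 cells in the 8 libraries, of which 6747 were WT control and 5327 were WT chronic colitis.

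Cells were placed in 6 gates by the genes they carried. A T cell had Cd3e and Cd3d, a B cell Cd79a and Ms4a1, an NK cell Ncr1 without Cd3e, and a group 2 innate lymphoid cell (ILC2) Gata3 and Il1rl1 without Cd3e. A macrophage had C1qa and C1qb, and a neutrophil had Csf3r and at least 10 UMIs of S100a8. A gate held 53.9% of control and 49.6% of chronic cells. Gene levels are UMIs summed over the gate cells of a library over all UMIs of the same cells, scaled to 1000000 (CPM). Differences are log2 ratios of chronic over control with 10 CPM added to each, for genes that reached 50 UMIs in the sum of both libraries, and a gene is counted as higher or lower at 2-fold. With 1 library per condition there is no replicate and no test, and the 95% intervals (exact for a share or a level, Newcombe's for a difference of shares) cover counting error only.

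DSS colitis raises the output of granulocytes from bone marrow, and marrow of the skull is connected to the meninges. Neutrophils load their granules in order, with elastase and myeloperoxidase in azurophil granules of precursors, lactoferrin and lipocalin 2 in later granules, and receptors such as Cxcr2 in mature cells. Macrophages of the brain borders are long-lived cells marked by Pf4 and Mrc1, whereas cells newly derived from monocytes carry Chil3, Vcan and Fn1. Chaperones of the heat-shock families fold proteins in every cell, and heat-shock factor raises their transcription.

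The libraries differed in ways that touch many of the values below. The median cell held 2647 UMIs in control and 3968 in chronic colitis, from totals of 29196718 and 35489724 gene UMIs. The WT control library was poor in short transcripts: 989 genes with a longest coding transcript under 700 bases summed to 70095 CPM in its T cells, against 111746 to 127259 CPM in the 7 other libraries. They were also lowest in WT control in each of the other 5 gates. The ribosomal protein gene Rps29 stood at 762, 763, 798 and 833 CPM in T cells of the control hashtag groups and at 3401, 3450 and 3291 CPM in the chronic groups. Each level was therefore also set against the range of the 6 other libraries, a comparison chosen after the data had been seen. Hashtag groups also fell into a low and a high set by the summed CPM of 10 immediate-early genes, such as Fos and Egr1, in T cells. In control, hashtags 4 and 5 (1460 and 1156 CPM) were low and hashtags 6 and 7 (5971 and 6307 CPM) were high. In chronic colitis, hashtag 5 (1167 CPM, 386 cells) was low, and hashtags 6 and 7 (3586 and 4299 CPM, 3340 and 1570 cells) were high. Hashtag 4 held 31 chronic cells and was put in neither set. The libraries shared 68 cell barcodes, where about 51.2 would be shared if barcodes were independent, and 23 of these had the same hashtag in both.

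Neutrophils made up a larger share of cells in chronic colitis and T cells a smaller one. The neutrophil gate held 2.31% of control and 6.61% of chronic cells, a difference of 4.30 percentage points (3.54 to 5.08). The T gate held 23.2% of control and 13.3% of chronic cells, a difference of -9.83 points (-11.2 to -8.46). The B gate held 14.6% and 18.2% (3.53 points, 2.18 to 4.88), the NK gate 6.28% and 4.49% (-1.80 points, -2.61 to -0.979), the ILC2 gate 5.23% and 6.95% (1.71 points, 0.843 to 2.60), and the macrophage gate 3.84% and 2.23% (-1.60 points, -2.22 to -0.983). In each of the 6 gates the hashtag groups of the conditions overlapped, so none of these differences was larger than the spread inside a library.

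**Figure D1:**
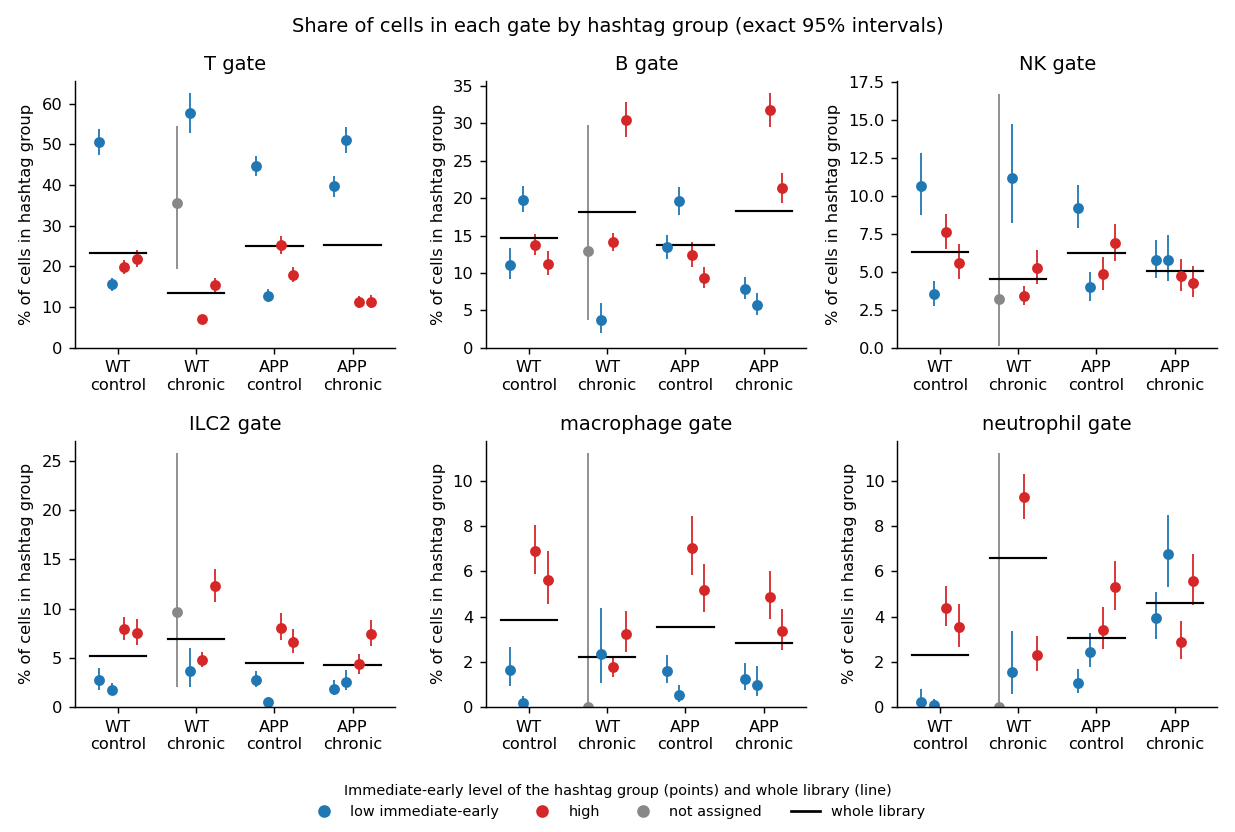
Share of cells in each gate (y axis, percent) for every hashtag group (points) and for the whole library (line), in WT and in APPNL-G-F control and chronic colitis. The neutrophil shares of WT chronic hashtags 6 and 7 lie apart, at 9.28% and 2.29%, on either side of the control values of 4.40% and 3.52%.

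In control, neutrophil, macrophage and ILC2 shares followed the hashtag sets. T, B and NK shares of the low control groups lay on either side of those of the high groups. Neutrophils were 0.217%, 0.0970%, 4.40% and 3.52% of cells in control hashtags 4 to 7, and 1.55%, 9.28% and 2.29% in chronic hashtags 5 to 7. Without chronic hashtag 6 the difference over all other cells was -0.198 points. In the low set, which leaves hashtag 6 out, neutrophils were 0.134% in control and 1.55% in chronic colitis (1.42 points, 0.416 to 3.22). These low-set shares rest on 4 of 2981 control cells and 6 of 386 chronic cells. After thinning each cell to 1000 UMIs the low set held 1 neutrophil among 2908 control cells and 0 among 384 chronic cells (0% to 0.956%). T cells were 50.5%, 15.6%, 19.9% and 21.8% of the control groups and 57.8%, 7.10% and 15.3% of the chronic groups. Within the high set both chronic groups were below both control groups, with 20.7% in control and 9.71% in chronic colitis (-10.9 points, -12.5 to -9.40). In the low set the chronic group (57.8%) was 31.4 points above the pooled control share of 26.4%, which joins groups of 50.5% and 15.6%. Within the high set B cells were higher in both chronic groups (12.7% and 19.3%, 6.66 points), and NK cells (6.74% and 3.97%, -2.77 points) and macrophages (6.37% and 2.24%, -4.13 points) were lower in both. In the low set these 3 differences had the opposite sign, at -13.5, 5.44 and 1.69 points. ILC2 differed by 1.58 points in the low set (-0.148 to 4.01) and by -0.564 points in the high set (-1.71 to 0.563), and both intervals include 0. ILC2 shares also depended on depth, since after thinning each cell to 1000 UMIs, which left out 204 control and 98 chronic cells, they were 2.02% in control and 1.76% in chronic colitis. Thinned in the same way, neutrophils were 0.642% and 1.89%. Where Csf3r was not required, cells with at least 10 S100a8 UMIs were 4.03% of control and 14.6% of chronic cells. They were 20.5% in chronic hashtag 6 and 5.16% in hashtag 7, against 7.21% and 6.73% in control hashtags 6 and 7. Their median depth was 9078.5 UMIs in control and 5802 UMIs in chronic colitis. The WT control library was poor in short transcripts, with 204103 CPM of the short genes in control and 270000 CPM in chronic neutrophils. The part of this in the S100a8 counts and neutrophil shares was not tested, and thinning evens out depth alone.

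APPNL-G-F mice were profiled in separate libraries, and whether these were processed apart from the WT libraries was not established. Hashtags 4 and 5 were low and 6 and 7 high in APPNL-G-F control, as in WT control. In the high set the differences of APPNL-G-F mice had the same sign as in WT mice for 5 gates. T cells were 21.3% in control and 11.2% in chronic colitis (-10.1 points), B cells 10.8% and 26.6% (15.8 points), NK cells 5.88% and 4.49% (-1.39 points), and macrophages 6.06% and 4.13% (-1.94 points), each without overlap of the hashtag groups. ILC2 were 7.31% and 5.89% (-1.42 points, -2.64 to -0.201), with overlap. Neutrophils were 4.40% and 4.22% in the high set (-0.178 points, -1.18 to 0.825). In the low set they were 1.76% and 5.11% (3.34 points, 2.37 to 4.38), with both chronic groups above both control groups, and over all cells 3.06% and 4.60% (1.54 points, 0.851 to 2.24), with overlap. Over all cells T cells differed by 0.307 points (-1.23 to 1.85) and ILC2 by -0.131 points, each with overlap. B cells differed by 4.55, NK cells by -1.19 and macrophages by -0.666 points over all cells, also with overlap. In the low set T cells differed by 15.8, NK cells by -0.793, ILC2 by 0.520 and macrophages by 0.0861 points, each with overlap. B cells differed there by -9.53 points, with both chronic groups below both control groups. Whether the WT and APPNL-G-F differences themselves differ was not tested.

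Gene levels differed most in neutrophils and macrophages. In the neutrophil gate 356 of 6379 genes were at least 2-fold higher in chronic colitis (5.58%) and 203 were lower (3.18%). In the macrophage gate 118 of 5255 genes were higher (2.25%) and 211 lower (4.02%). In the lymphoid gates the counts were 137 higher and 36 lower of 9648 genes in T cells (1.42% and 0.373%), 150 and 62 of 8853 in B cells (1.69% and 0.7%), 91 and 58 of 6641 in NK cells (1.37% and 0.873%), and 85 and 87 of 5885 in ILC2 (1.44% and 1.48%). The median log2 ratio over all genes tested was -0.16 in T cells, -0.11 in B cells, -0.18 in NK cells, -0.16 in ILC2, -0.24 in macrophages and 0.08 in neutrophils, and list medians below are to be read against these. With that median set to 0, the counts were 138 higher and 29 lower in NK cells, 121 and 53 in ILC2 and 170 and 100 in macrophages, so the balance of higher and lower genes in these gates depended on the scaling. Leaving out control hashtag 6 gave 791 higher and 308 lower genes in neutrophils, and leaving out chronic hashtag 6 gave 388 lower.

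Most of the 5 largest rises in each gate were transcripts of other lineages. Camp, which encodes an antimicrobial peptide of neutrophil granules, was at 4.99 CPM in control and 1644 CPM in chronic B cells, and S100a8, a subunit gene of calprotectin, was at 88.9 and 4803 CPM. In T cells S100a8 was at 566 and 4786 CPM and in NK cells at 228 and 3900 CPM. These UMIs sat in few cells: cells with at least 10 S100a8 UMIs were 2.67% of chronic T cells, 2.79% of B cells, 2.93% of NK cells, 2.43% of ILC2 and 15.1% of macrophages, and held from 99.0% to 99.7% of the S100a8 UMIs of their gate. In control they were from 0.101% to 1.54% of these gates. In macrophages the 5 largest rises were the plasma cell genes Jchain (16.2 and 6984 CPM), Igha, Igkc (318 and 15251 CPM) and Mzb1 and the precursor gene Elane (13.6 and 903 CPM). In neutrophils they were Jchain, Igkc, Ighm, Igha and the B lineage gene Ly6d. In ILC2 the list was Igha, Camp, Prtn3, S100a8 and Elane. Barcodes of at most 50 UMIs, taken as empty droplets, held 1769 CPM of S100a8 in control and 10837 CPM in chronic colitis. The part of droplets that caught a second cell or free RNA in these rises was not tested.

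Each gate was therefore counted again without cells that carried another lineage's UMIs (at least 3 of S100a8, Jchain or Elane, or 1 of Cd3e, Cd3d, Cd79a, Ms4a1, C1qa or C1qb, genes of the gate's own lineage excepted), a step chosen after the data had been seen. It left out 9.08% of control and 15.05% of chronic T cells, 27.0% and 40.3% of macrophages, and between 5.16% and 15.1% of the cells of the other gates. Camp in B cells was then at 0.366 and 13.8 CPM, and Jchain in macrophages at 6.78 and 24.5 CPM. The counts were then 85 higher and 20 lower in T cells (0.948% and 0.223%), 107 and 65 in B cells (1.28% and 0.777%), 79 and 44 in NK cells (1.3% and 0.725%), 64 and 86 in ILC2 (1.23% and 1.65%), 78 and 129 in macrophages (2.54% and 4.2%) and 333 and 178 in neutrophils (5.98% and 3.2%). Values given for "cells of 1 lineage" come from these cells, and so do all ranges of the 6 other libraries and all APPNL-G-F values. The name stands for this filter only, which does not check every lineage. T cells kept 1582 control and 0 chronic UMIs of the basophil gene Prss34, and 0 and 78 of the fibroblast gene Col1a2. The haemoglobin gene Hba-a1 kept 516 and 1 UMIs in B cells and 400 and 0 in macrophages.

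Among 1-lineage lymphocytes, most genes that were higher in chronic colitis left the range of the 6 other libraries in WT control. Of the 60 T cell genes that were at least 2-fold higher without overlap of hashtag groups (0.669% of genes tested), 40 were below the range of the 6 other libraries in WT control and inside it in chronic colitis, 10 were outside it in both, and 8 were above it in chronic colitis with control inside. In B cells these numbers were 39, 25 and 8 of 80 genes (0.957%), in NK cells 37, 21 and 6 of 66 (1.09%), and in ILC2 39, 11 and 2 of 53 (1.02%). Of these genes 12 in T cells, 25 in B cells, 29 in NK cells and 22 in ILC2 had a higher level in APPNL-G-F chronic colitis than in its control too. The share of all genes tested that were higher there was 60.3% in T cells, 37.7% in B cells, 47.7% in NK cells and 44.0% in ILC2.

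**Figure D2:**
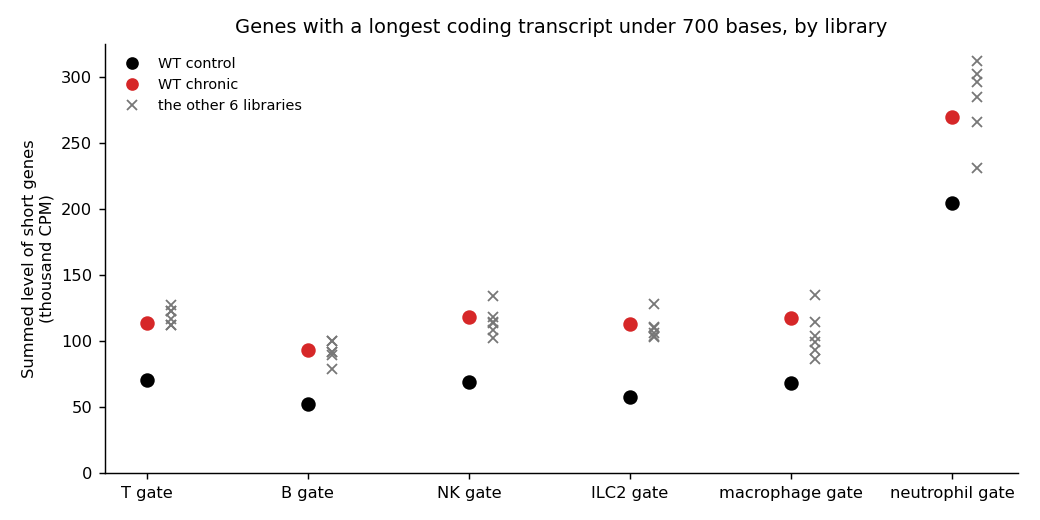
Summed CPM of the 989 short genes (y axis) in each gate (x axis) for the 8 libraries (points). WT control is the lowest point in all 6 gates, at 70095 CPM in T cells against 113403 CPM in WT chronic colitis.

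The neutrophil gate of chronic colitis held more transcripts of azurophil granules and fewer of later granules and of mature cells. The gate held 156 control and 352 chronic cells, and nearly all came from hashtags 6 and 7 (97 and 55 control cells, 310 and 36 chronic cells). Of 10 azurophil granule genes, 7 were at least 2-fold higher and without overlap (34.4% of all genes were without overlap), 1 was 2-fold lower, and the median log2 ratio was 1.90 against 0.08 over all genes. Elane (ENSMUSG00000020125), which encodes neutrophil elastase, was at 813 and 80.1 CPM in control hashtags 6 and 7 and at 6323 and 5001 CPM in the chronic groups (log2 ratio 2.52). Mpo, the gene of myeloperoxidase, was at 303 and 13.4 CPM in control and at 4770 and 1965 CPM in chronic colitis (2.81). For both genes the chronic groups were above the control groups. The serine protease genes Prtn3 (1061 and 4705 CPM over the libraries, 2.14) and Ctsg (194 and 1688 CPM, 3.05) and the precursor gene Ms4a3 (116 and 387 CPM, 1.65) were higher too. The other 2 were Nkg7, known from granules of cytotoxic lymphocytes, and the calreticulin gene Calr. Ctsc, whose product activates these proteases, was lower, at 225 and 95.4 CPM (-1.16).

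In cells of 1 lineage 7 of the 10 azurophil genes were still 2-fold higher and 1 was lower, but Elane was the 1 gene of the list that was higher without overlap (25.9% of all genes were). Its level there was 5896 CPM in chronic colitis against 654 in control and 560 to 4833 in the 6 other libraries. Its groups were then at 912 and 2.54 CPM in control and 6264 and 1620 CPM in chronic colitis. Mpo overlapped between groups there, with 343 and 0 CPM in control against 4616 and 208 CPM in chronic colitis. In APPNL-G-F mice the median log2 ratio of the 10 genes was 1.06, with 1.38 for Elane and 1.68 for Mpo. A UMI of Elane was found in 10.9% of control neutrophils (6.48% to 16.9%) and 19.3% of chronic neutrophils (15.3% to 23.8%). Control neutrophils were deeper, with medians of 9961 and 7823 UMIs against 5740 and 6016 in the chronic groups. After thinning to 2000 UMIs, which left out 2 control and 35 chronic cells, the shares were 6.49% and 14.5%, with 7.37% and 3.64% in the control groups and 15% and 12.9% in the chronic groups. T cells, which should lack Elane, gave the background: 0.448% of control T cells (median 2910 UMIs) and 4.92% of chronic T cells (median 3770 UMIs) had a UMI, and 0.389% and 2.58% after the same thinning (0.126% to 0.905% and 1.51% to 4.10%). Elane in empty droplets was at 571 CPM in control and 2388 CPM in chronic colitis. The neutrophil shares lay above this background in both libraries, but the background rose as well, and its part in the difference was not tested. The share with a UMI of the proliferation gene Mki67 moved from 6.49% to 14.2%, at 8.42% and 3.64% in control and 13.9% and 12.9% in chronic colitis.

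Of 14 genes of secondary and tertiary granules, 6 were at least 2-fold lower and 12 were lower without overlap (23.7% of all genes were), and the median log2 ratio was -0.83. Lcn2, which encodes the siderophore-binding protein lipocalin 2, was at 25705 and 25987 CPM in control and 11187 and 6443 CPM in chronic colitis (-1.23). Ltf, the lactoferrin gene, was at 9902 and 8097 CPM and at 4359 and 1887 CPM (-1.11), and Cd177 was at 2027 and 2059 CPM and at 738 and 522 CPM (-1.44). The exceptions were Camp (12929 and 8101 CPM in control, 18692 and 14333 CPM in chronic colitis, 0.74) and the ficolin gene Fcnb (74.5 and 28.9 CPM, 159 and 126 CPM, 1.25), which were higher in both chronic groups. After thinning to 2000 UMIs the share of cells with a UMI of Ltf was 59.7% in control (51.5% to 67.6%) and 57.4% in chronic colitis (51.8% to 62.9%), a smaller difference than in its level. In T cells, thinned alike, the Ltf shares were 0.389% and 2.12%. Among cells of 1 lineage 4 of the 14 genes were 2-fold lower and the median was -0.76, against -0.44 in APPNL-G-F mice.

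Of 14 genes of mature neutrophils, 6 were at least 2-fold lower, and the median was -0.62. The decoy receptor gene Il1r2 was at 1434 and 2513 CPM in control and 394 and 423 CPM in chronic colitis (-2.10). Ifitm1, an interferon-induced membrane protein gene, was at 2471 and 5128 CPM and at 640 and 369 CPM (-2.40), and Ifitm2 followed with a ratio of -1.40. For all 3 genes the control level lay above, and the chronic level inside, the range of the 6 other libraries. The chemokine receptor gene Cxcr2 was at 249 and 403 CPM in control and 189 and 111 CPM in chronic colitis (-0.69), and the median of the list was 0.14 in APPNL-G-F mice. Retnlg, another gene of mature cells, overlapped between groups in cells of 1 lineage. The 5 largest falls by the naming rule were the acute-phase gene Saa3 (241 and 1.32 CPM), Ggt1 (132 and 7.90 CPM), the chemoattractant gene Prok2 (332 and 38.8 CPM), the protease gene Asprv1 (1356 and 194 CPM) and the lipase gene Lipg (173 and 19.7 CPM), none with overlap. All of them were lower in APPNL-G-F chronic colitis too, Prok2 at 229 and 147 CPM, Ggt1 at 69.1 and 25.2 CPM, Lipg at 139 and 42.0 CPM, Asprv1 at 883 and 252 CPM and Saa3 at 82.6 and 1.199 CPM in cells of 1 lineage.

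**Figure D3:**
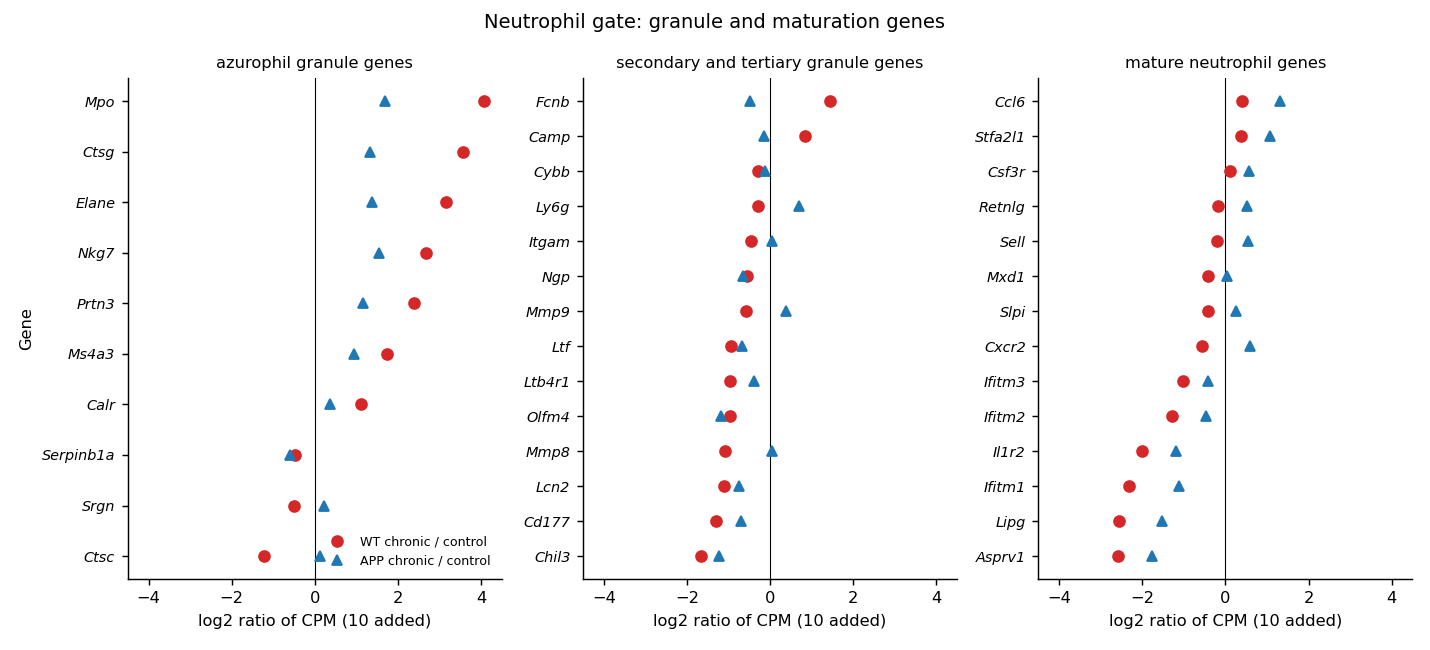
Log2 ratio of chronic colitis over control (x axis) in neutrophils of 1 lineage for the genes of azurophil granules, of secondary and tertiary granules and of mature cells (y axis), in WT (circles) and APPNL-G-F mice (triangles). Of the 10 azurophil genes 7 lie at or beyond 2-fold higher in WT mice, where Ltf, Lcn2 and Il1r2 lie below 0.

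Immediate-early genes were lower in chronic neutrophils, with 5 of 10 at least 2-fold lower and a median of -1.04. Fos was at 2389 and 2608 CPM in control and 1069 and 1191 CPM in chronic colitis (-1.15), and the orphan receptor gene Nr4a1 at 608 and 530 CPM and at 188 and 273 CPM (-1.49). Of 14 inflammatory genes 3 were lower (median -0.80), of 11 genes of ageing and trafficking 3 were lower and 1 higher (-0.65), and none of 6 S100 genes differed by 2-fold (0.08). Of 12 interferon-stimulated genes 3 were higher (0.45), of 16 cell-cycle genes 1 was higher (0.54), of 9 glucocorticoid-responsive genes 2 were higher and 1 lower (-0.10), and none of 9 immunoproteasome and MHC class I genes differed (0.30). In cells of 1 lineage 267 neutrophil genes were at least 2-fold higher without overlap (4.8%) and 162 lower (2.91%). Of these, 210 and 137 had the same sign in APPNL-G-F mice (78.7% and 84.6%), where 71.8% and 28.2% of all genes tested had that sign. Of the 267 higher genes, 83 were below the range of the 6 other libraries in WT control alone. Another 47 were above it in chronic colitis alone, and 93 were outside it in both. Of the 162 lower genes, 89 were above it in WT control alone, 7 below it in chronic colitis alone and 45 outside it in both. Cd74, the MHC class II invariant chain gene, and H2-Aa, a class II chain gene, were picked after their values were seen. In cells of 1 lineage Cd74 was at 28.0 CPM in control and 546 CPM in chronic colitis (3.87) and H2-Aa at 2.88 and 185 CPM (3.92), with log2 ratios of -3.94 and -3.56 in APPNL-G-F mice. Whether the ratios of the genotypes differ was not tested.

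The macrophage gate of chronic colitis held fewer transcripts from a list of monocyte-derived genes. The gate held 259 control and 119 chronic cells, of which 189 and 71 remained in cells of 1 lineage, and hashtags 6 and 7 supplied the groups. Cells with UMIs of another lineage were a larger share of the chronic gate, so values are given for both sets of cells. The 5 largest falls of the full gate were the haemoglobin gene Hbb-bs, Saa3, the lipocalin gene Apod, the growth factor gene Igf2 and Calca. Hbb-bs (463 and 0 UMIs, at least 124-fold lower) was held mostly by control cells outside hashtags 6 and 7, Apod (172 and 8.46 CPM) was at 21.1 and 490 CPM in these 2 control groups, and Igf2 (86.9 and 3.17 CPM, ratio 27.4, 9.11 to 135) and Calca (126 and 10.6 CPM) were lower in both chronic groups. Of 13 monocyte-derived genes 6 were at least 2-fold lower and 1 higher, Ly6c2, and 9 were lower without overlap (45.7% of all genes were), with a median of -0.96 against -0.24 over all genes. Among cells of 1 lineage 6 of 12 were lower, 9 without overlap (28% of all genes were), with a median of -0.99 against -0.07. In APPNL-G-F mice the median was -0.60. Chil3 (ENSMUSG00000040809), which encodes a chitinase-like protein of monocytes and neutrophils, was at 2192 and 1184 CPM in control and 277 and 466 CPM in chronic colitis (-2.20). In cells of 1 lineage it was at 2622 and 1771 CPM and at 55.9 and 6.84 CPM, against 5.68 to 201 CPM in the 6 other libraries. There the control level stood above all other libraries and the chronic level stood among them, and APPNL-G-F mice had a log2 ratio of -3.75.

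Several genes of the same cells shared this pattern. In cells of 1 lineage the acute-phase gene Saa3 was at 478 and 866 CPM in the control groups (432 UMIs) and at 0 UMIs in chronic colitis, at least 63.7-fold lower with a floor of 3 counts over the library. The 6 other libraries held 0 to 47.0 CPM. Lrg1, a secreted glycoprotein gene, had 289 control UMIs and 1 chronic UMI (392 and 3.07 CPM, ratio 128, 22.8 to 5066), and the proteoglycan gene Vcan had 47 and 1 (63.7 and 3.07 CPM, ratio 20.8, 3.55 to 838). The matrix gene Thbs1 was at 386 and 21.5 CPM, the fibronectin gene Fn1 at 373 and 123 CPM, Il1r2 at 205 and 6.13 CPM, and the integrin gene Itgam at 306 and 123 CPM. Each of these 6 genes was above the range of the other 6 libraries in WT control, and Fn1 was above it in chronic colitis as well (3.08 to 64.3 CPM elsewhere). Lyz2, the lysozyme gene, was at 14102 and 7300 CPM with 8069 to 10045 CPM elsewhere. Il1r2 is also a gene of mature neutrophils, as given above. The neutrophil markers Mmp8 (54 control and 2 chronic UMIs) and Lcn2 (50 and 3) were lower in these cells too, and other neutrophil markers are not listed here. The part of neutrophil RNA in these falls was not tested. Of the 109 genes that were at least 2-fold lower without overlap (3.55%), 66 were above the other libraries in control alone and 9 below them in chronic colitis alone. Of the 109, 89 were lower in APPNL-G-F chronic colitis as well (81.7%), where 53.3% of all genes tested were lower.

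**Figure D4:**
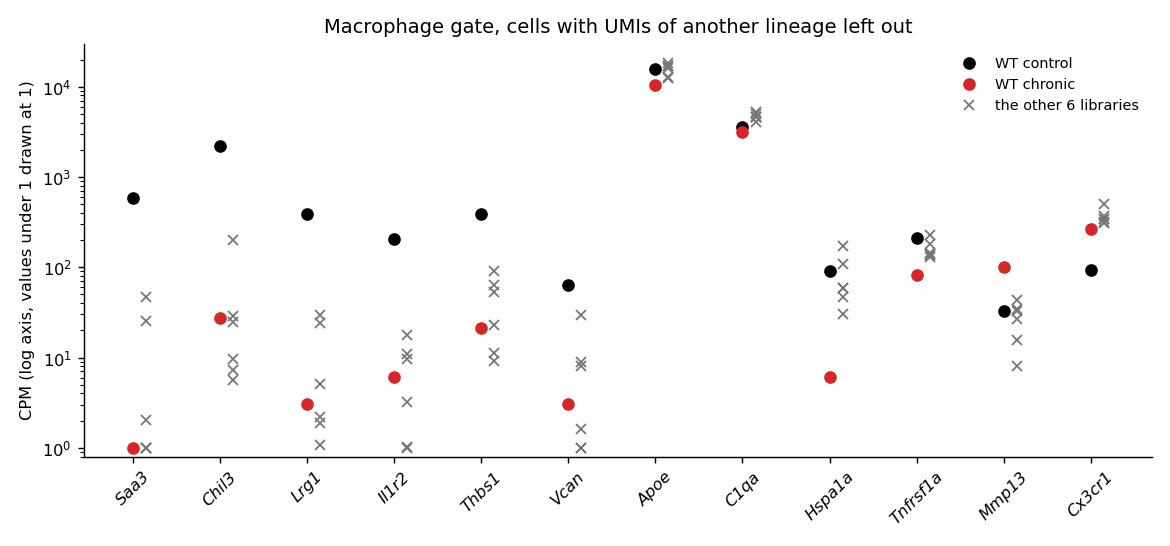
Level in macrophages of 1 lineage (CPM, log axis) of 12 genes in WT control, WT chronic colitis and the 6 other libraries. Chil3 and Saa3 in WT control stand above every other library, whereas Tnfrsf1a in WT chronic colitis (82.8 CPM) stands below every other.

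Border macrophage genes differed by the choice of cells. Of 13 such genes 1 was 2-fold lower in the full gate (median -0.11), and in cells of 1 lineage 2 of 12 were higher and 2 lower (median 0.54), with 6 higher without overlap (17.8% of all genes were). The platelet factor gene Pf4 was at 227 and 224 CPM in control and 337 and 392 CPM in chronic colitis, and in cells of 1 lineage at 282 and 225 CPM and at 762 and 711 CPM (1.49), with 419 to 1876 CPM elsewhere. The transcription factor gene Maf was then at 150 and 105 CPM and at 385 and 260 CPM (1.23), with 286 to 411 CPM elsewhere. For both genes the control library was the one outside the range. In the same cells the scavenger receptor gene Stab1 was at 193 and 331 CPM (0.75, under 2-fold), and it was at 180 and 176 CPM in the full gate. The folate receptor gene Folr2 had too few UMIs there and was at 22.2 and 42.3 CPM in the full gate (0.70). Mrc1, the mannose receptor gene, overlapped (468 and 567 CPM), but was lower in the full gate (369 and 285 CPM), and F13a1 (915 and 414 CPM) and the lectin gene Clec4n (205 and 85.8 CPM) were lower. The gate genes C1qa and C1qb were at 3557 and 3188 CPM and at 4893 and 4298 CPM, in both libraries below the 6 others. Of the microglia genes, Tmem119 was at 21.7 and 12.3 CPM, with 23.6 to 170 CPM elsewhere, and Cx3cr1, which border macrophages also express, at 92.2 and 264 CPM, with 305 to 503 CPM elsewhere.

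Of 12 complement and Fc receptor genes none was 2-fold lower in cells of 1 lineage, but 10 were lower without overlap, with a median of -0.54. In the full gate 6 of 13 were 2-fold lower (-0.82). Fcgr3, a low-affinity IgG receptor gene, was at 731 and 990 CPM in control and 462 and 451 CPM in chronic colitis (-0.80). Of 13 inflammatory cytokine and chemokine genes 3 were lower (median -0.17), among them Il1b (1378 and 647 CPM) and the neutrophil attractant gene Cxcl2 (1889 and 883 CPM), and Ccl3, Ccl4 and Tnf did not differ by 2-fold. None of 9 MHC class II genes (0.25) and none of 8 lipid and plaque-associated genes (-0.03) was 2-fold different. Among the 69 genes of 1-lineage macrophages that were 2-fold higher without overlap (2.25%), chronic colitis alone lay above the other libraries for 8, beside the 9 of 109 lower genes given above. Over all 3071 genes tested in these cells, chronic colitis alone lay above for 475 and below for 456. The 2 genes that follow were picked after their values were seen. The TNF receptor gene Tnfrsf1a was at 189 and 270 CPM in control and 90.9 and 75.2 CPM in chronic colitis, with 129 to 227 CPM elsewhere, and its log2 ratio was -1.26 in WT and -0.77 in APPNL-G-F mice. The collagenase gene Mmp13 was at 46.2 and 12.1 CPM and at 168 and 61.6 CPM, with 8.11 to 43.5 CPM elsewhere, and its ratio was 1.39 and 1.56.

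Heat-shock chaperones were lower in chronic lymphocytes. Against the 6 other libraries, chronic colitis was below the range for 6 of 11 chaperones in T cells, 5 of 9 in B cells, 5 of 9 in NK cells and 8 of 9 in ILC2, and WT control was above it for 4, 1, 0 and 1 of them. The list held 11 genes: the cytosolic Hsp70 genes Hspa8, Hspa1a and Hspa1b, their co-chaperones Dnaja1, Dnajb1 and Hsph1, the Hsp90 genes Hsp90aa1 and Hsp90ab1, the mitochondrial Hspd1 and Hspe1, and Hspa5 of the endoplasmic reticulum. The RefSeq promoters of 8 of them could be matched (GRCm38.p6, 250 bases before the start, strand of the gene). Those of the 3 co-chaperones are shown, with an inverted repeat of the heat-shock element, GAANNTTC or TTCNNGAA, in capitals. These genes were 2-fold lower in T cells, as was Hspa1b, whose promoter holds a GAANNTTC match and is not shown.
Dnaja1, chr4:40722218-40722467, + strand: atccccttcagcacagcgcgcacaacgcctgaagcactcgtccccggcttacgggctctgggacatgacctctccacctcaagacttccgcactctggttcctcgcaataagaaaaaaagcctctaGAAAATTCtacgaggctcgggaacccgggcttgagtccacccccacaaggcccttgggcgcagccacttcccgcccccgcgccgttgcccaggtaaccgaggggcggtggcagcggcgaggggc
Hsph1, chr5:149636337-149636586, - strand: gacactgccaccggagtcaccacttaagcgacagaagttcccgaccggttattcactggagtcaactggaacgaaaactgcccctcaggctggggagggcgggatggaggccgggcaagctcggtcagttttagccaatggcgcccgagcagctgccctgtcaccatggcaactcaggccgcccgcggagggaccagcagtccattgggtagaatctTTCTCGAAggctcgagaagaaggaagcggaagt
Dnajb1, chr8:83607925-83608174, + strand, without such a match: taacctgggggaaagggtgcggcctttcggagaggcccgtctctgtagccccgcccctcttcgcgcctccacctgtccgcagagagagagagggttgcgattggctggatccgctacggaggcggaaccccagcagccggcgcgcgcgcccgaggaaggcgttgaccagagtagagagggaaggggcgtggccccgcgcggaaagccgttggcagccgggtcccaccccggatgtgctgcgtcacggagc
Either form lay in 5 of the 8 promoters and in 12.9% of 27025 promoters of this length, on either strand since both forms are their own reverse complement. The near-identical neighbours Hspa1a and Hspa1b are counted separately among these 5. A longer form with 3 units of the element lay in 1 of the 8 promoters, that of Hspe1, which is not shown. This form lay in 0.4% of the 27025 promoters. Hspe1 was not lower in T cells of chronic colitis, as given below. A match describes the letters only.

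In T cells 4 of 11 chaperone genes were at least 2-fold lower (0.373% of all genes were), 6 were lower without overlap (16.1% of all genes were), and the median log2 ratio was -0.76 against -0.16. Dnajb1, which stimulates the ATPase of Hsp70, was at 324, 262, 137 and 199 CPM in the 4 control groups and 67.3, 66.3 and 78.3 CPM in the 3 chronic groups (-1.57). Dnaja1 was at 796, 821, 342 and 565 CPM and at 334, 218 and 205 CPM (-1.29). For both genes every chronic group was below every control group, and chronic colitis (75.5 and 281 CPM in cells of 1 lineage) was below all other libraries for Dnajb1 (104 to 211 CPM) and equal to the lowest, at 3 digits, for Dnaja1 (281 to 754 CPM), whose groups then overlapped. Hsph1, a nucleotide exchange factor of Hsp70, overlapped between groups, at 231, 307, 90.2 and 253 CPM in control and 109, 66.3 and 58.2 CPM in chronic colitis (-1.35). The constitutive Hspa8 was at 3546, 3988, 2804 and 4389 CPM and at 2450, 2046 and 1928 CPM (-0.76), without overlap. The stress-inducible Hspa1b was at 27.1 and 4.04 CPM (-1.40), and its reads cannot be parted with certainty from its near-identical neighbour Hspa1a. Ahsa2, which encodes an Hsp90 activator outside the list, was among the 5 largest falls (85.6 and 31.5 CPM, -1.20). Hspe1 went the other way at 269 and 308 CPM (0.19). The T cell median was -0.79 in the high set of hashtag groups and -0.74 in the low set.

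Chaperones were also lower in B cells and ILC2. In B cells 2 of 9 chaperone genes were 2-fold lower and 7 were lower without overlap (15.5% of all genes were), with a median of -0.46. Hsph1 was at 122, 104, 68.3 and 155 CPM in control and 43.3 and 29.0 CPM in chronic colitis (-1.27), and Dnaja1 at 586, 363, 194 and 402 CPM and at 155 and 122 CPM (-1.18). Both were below all other libraries in chronic colitis in cells of 1 lineage, with 38.2 CPM against 49.8 to 147 for Hsph1 and 143 CPM against 160 to 486 for Dnaja1. In ILC2 the median of 9 genes was -0.74, with 1 gene 2-fold lower and 6 lower without overlap (14.2% of all genes were). Hsph1 was at 152, 144, 71.8 and 134 CPM in control and 54.0 and 36.1 CPM in chronic colitis (-1.09), and Hsp90aa1, the inducible Hsp90 gene, at 429, 585, 374 and 576 CPM and at 247 and 242 CPM (-0.95). Hspa8 was at 3475 and 2079 CPM over the ILC2 libraries (-0.74) and below the other 6 in chronic colitis. NK cells had the smallest lymphoid difference, with 2 of 9 genes 2-fold lower, 3 lower (11.8% of all genes were) and 1 higher without overlap, and a median of -0.33.

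In the chaperone list neutrophils differed from the lymphoid gates, and macrophages depended on the choice of cells. Against the 6 other libraries, chronic colitis was below the range for 5 of 10 chaperones in macrophages and 0 of 8 in neutrophils. It was above the range for 1 and 0 of them, and WT control was above it for 1 in each gate. In macrophages 6 of 11 genes were 2-fold lower in the full gate (median -1.11), but 2 of 10 in cells of 1 lineage (-0.27), with Hspa1a at 99.1 and 80.5 CPM in control and 6.99 and 6.84 CPM in chronic colitis and 30.3 to 173 CPM elsewhere. These chronic values rest on 2 UMIs (ratio of control to chronic 14.8, 3.94 to 125). In neutrophils 2 of 8 were higher, Hspe1 (25.8 and 126 CPM, 1.93) and Hspd1 (39.4 and 97.7 CPM, 1.13), and the median was 0.21. In APPNL-G-F mice the list medians in cells of 1 lineage were 0.10 in T cells, 0.09 in B cells, 0.15 in NK cells, -0.41 in ILC2 and -0.41 in macrophages. The WT medians in the same cells were -0.89, -0.53, -0.29, -0.72 and -0.27. The T and B cell differences of WT mice thus had no counterpart of that size in APPNL-G-F mice, and this contrast was not tested.

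**Figure D5:**
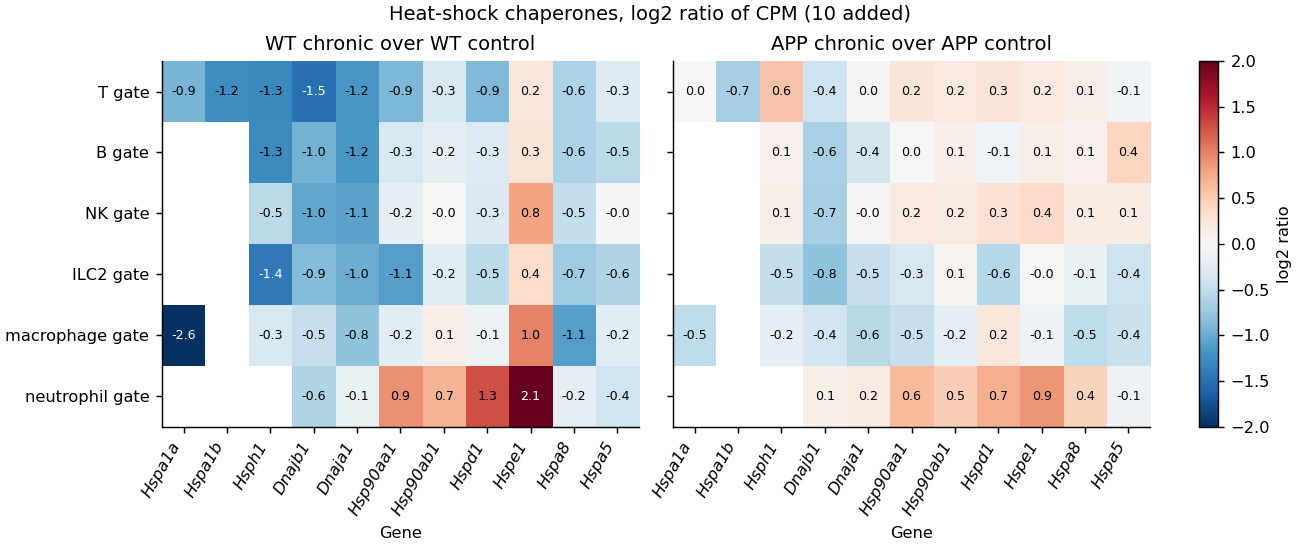
Log2 ratio of chronic colitis over control (colour) for 11 chaperone genes (columns) in 6 gates (rows) in cells of 1 lineage. WT mice are on the left and APPNL-G-F mice on the right. A field is blank where a gene had too few UMIs. Hsph1, Dnaja1 and Dnajb1 lie below 0 in WT T cells, B cells and ILC2, and WT neutrophils are high for Hspe1 (2.10).

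T cells differed little in lists of identity and function in cells of 1 lineage. The T cell gene Trac was at 198 and 142 CPM in the full gate and at 209 and 177 CPM in cells of 1 lineage. Of 15 effector and cytotoxic genes 2 were 2-fold lower in the full gate (-0.61), but none of 14 in cells of 1 lineage (-0.37 against -0.09), and the granule protease gene Gzmb was at 126 and 109 CPM. Tbx21, the gene of the type 1 regulator T-bet, was among the 5 largest falls, at 111, 92.2, 67.5 and 79.0 CPM in control and 44.8, 26.8 and 36.7 CPM in chronic colitis (-1.11). After other lineages were left out it was at 94.0 and 47.6 CPM, with 53.4 to 79.2 CPM elsewhere, so control lay above and chronic colitis below the other libraries. Il17a, the interleukin-17 gene, was at 2.62, 0, 568 and 354 CPM in control and 2.13, 98.4 and 61.8 CPM in chronic colitis, and the checkpoint gene Pdcd1 at 149, 172, 607 and 694 CPM and at 211, 102 and 109 CPM. Both were high in the high control groups, overlapped between conditions, and had the opposite sign in the low set. Cd8a was at 457 and 249 CPM and Cd4 at 63.7 and 33.9 CPM, each with overlap. None of 10 immediate-early genes and none of 19 interferon-stimulated genes differed by 2-fold. In the naive and recirculation list the binding protein gene Igfbp4 alone was 2-fold different (23.0 and 74.3 CPM, 1.35). Of the remaining lists, 1 of 9 type 17 genes (median 0.09 in cells of 1 lineage) and 1 of 10 checkpoint and costimulatory genes (-0.34) were lower, against 4 and 4 in the high set, and none of the T cell subset (-0.29), residency (-0.36), homing (-0.04), glucocorticoid-responsive (-0.11), cell-cycle (-0.02) or MHC class I (-0.17) genes was.

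Fibroblast transcripts entered the T gate of chronic colitis. The matrix gene Mgp was at 0, 0, 4.29 and 3.63 CPM in control and 58.7, 7.45 and 87.7 CPM in chronic colitis, and in cells of 1 lineage at 75.5 CPM against 0.199 to 15.1 CPM in the 6 other libraries. Summed fibroblast markers stood at 0.747 CPM in control and 62.4 CPM in chronic T cells, and at 49.4 and 105 CPM in cells of no gate. Their part in the level of Mgp was not tested. The histone gene Hist1h2ap, also among the 5 largest rises with Camp, S100a8 and Wfdc21, was at 7.20, 10.96, 2.45 and 7.27 CPM and at 85.4, 86.4 and 52.5 CPM. The part of the short-transcript difference between the libraries in these rises was not tested. With genes under 1000 bases left out, 51 of the 137 higher T cell genes were still called.

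NK cells of chronic colitis carried more cell-cycle transcripts. In the full gate none of 15 cell-cycle genes was 2-fold higher, 2 were higher without overlap (4.26% of all genes were), and the median was 0.62 against -0.18. Among cells of 1 lineage 8 of 15 were at least 2-fold higher (1.3% of all genes were) and 7 were higher without overlap (4.86% of all genes were), with a median of 1.01 against -0.14 and 0.05 in APPNL-G-F mice. Rrm2, a ribonucleotide reductase gene, was at 23.6, 4.40, 25.4 and 0 CPM in control and 77.5, 75.4 and 41.7 CPM in chronic colitis (1.48). Hmgb2, a chromatin protein gene, was at 246, 431, 368 and 387 CPM and at 754, 866 and 587 CPM (1.06). Both lay below the 6 other libraries in control and above them in chronic colitis, whereas Mki67 (40.0 and 93.4 CPM) and the topoisomerase gene Top2a (40.0 and 96.3 CPM) overlapped between groups. None of 13 cytotoxic genes was 2-fold different (-0.31), with Gzma at 1785 and 1948 CPM and the perforin gene Prf1 at 246 and 156 CPM. Of 15 interferon-stimulated genes 3 were lower and 1 higher (-0.30), Isg15 among the lower with overlap (99.4 and 44.4 CPM), and 1 of 11 ILC1 and immature NK genes (-0.44) and 2 of 9 glucocorticoid-responsive genes (-0.72) were lower. None of the immediate-early (-0.36), maturation (-0.21), lectin-like receptor (-0.16) or MHC class I (-0.08) genes differed by 2-fold. The largest rises, Camp, Mpo, Ltf, Ngp and S100a8, were all neutrophil genes.

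The 5 largest falls in NK cells were Ifitm1, the copine gene Cpne7, the potassium channel gene Kcnj8, Heca and Txnip. Ifitm1 was at 181, 21.8, 55.3 and 388 CPM in control and 0, 5.98 and 9.95 CPM in chronic colitis, and had the opposite sign in APPNL-G-F mice (1.94). Txnip, which encodes an inhibitor of thioredoxin and of glucose uptake, was at 796, 675, 747 and 1012 CPM and at 340, 283 and 443 CPM (-1.19). It was also lower in B cells, at 383, 381, 423 and 431 CPM in control and 214 and 230 CPM in chronic colitis (-0.84), where it was -0.76 in APPNL-G-F mice. With other lineages left out, chronic Txnip was below all other libraries in both gates, with 400 CPM against 466 to 748 in NK cells and 239 CPM against 253 to 436 in B cells. Heca was at 119 and 45.9 CPM, Kcnj8 at 82.4 and 27.6 CPM and Cpne7 at 109 and 37.5 CPM.

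Among the genes that were lower in B cells of chronic colitis were 2 surface ligand genes. Clec2i, a ligand of an NK lectin receptor, was at 74.6, 64.1, 63.0 and 47.3 CPM in control and 21.6 and 16.9 CPM in chronic colitis (-1.25), and Icosl, the ligand of Icos, at 54.2, 36.0, 66.2 and 52.0 CPM and at 16.0 and 20.0 CPM (-1.13). Both were above the other libraries in control and inside their range in chronic colitis, and their log2 ratios in APPNL-G-F mice were -1.33 and -0.75. Gm21887, an unnamed gene model with the largest fall in B cells, was at 336 CPM in control hashtag 6 and at 75.7 to 94.9 CPM in the other control groups, against 59.3 and 54.3 CPM. None of 10 maturation genes was 2-fold different (-0.44), with Ighd at 140 and 84.6 CPM. The recombinase gene Rag1 was at 23.7, 54.4, 3.20 and 1.58 CPM in control and 4.23 and 5.80 CPM in chronic colitis, high in the low control groups only, and 1 of 10 precursor genes was 2-fold lower (-0.18). In the high set the direction turned, with 4 of the 10 at least 2-fold higher, none lower, and a median of 0.69 against -0.08 over all genes. Ighg1, the IgG1 constant gene, had 1 control UMI and 1452 chronic UMIs, of which hashtag 6 (683 CPM) held nearly all and hashtag 7 none. Of 13 interferon-stimulated genes 1 was higher (0.19), of 16 cell-cycle genes 1 was higher (0.25), of 9 activation genes 1 was lower (-0.17), and of 8 B-1 genes 2 were lower (-0.05). Of the 9 antibody and plasma cell genes 2 were higher and 1 lower (0.31), of 9 glucocorticoid-responsive genes 1 was lower (-0.34), and no immediate-early (-0.08) or MHC class I (-0.11) gene differed by 2-fold. Camp, S100a8, S100a9, Elane and Ngp, all of neutrophils or their precursors, were the 5 largest rises.

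ILC2 of chronic colitis had lower levels of the interleukin-2 receptor beta gene Il2rb and of Tnfrsf18. Il2rb was at 88.4, 98.8, 131 and 189 CPM in control and 18.6 and 47.3 CPM in chronic colitis (-1.58), and in cells of 1 lineage chronic colitis was at 42.9 CPM against 56.2 to 110 CPM in the other libraries. Bcl3, an NF-kappaB cofactor gene, was at 63.1, 76.0, 54.4 and 154 CPM and at 20.3 and 32.0 CPM (-1.51). Tnfrsf18, the gene of the costimulatory receptor GITR, was at 455, 441, 720 and 1198 CPM and at 306 and 336 CPM (-1.28). For all 3 genes both chronic groups were below every control group, and the log2 ratios in APPNL-G-F mice were -0.52, -0.50 and -0.84. Spata5l1 (60.7 and 18.0 CPM) and the lipid synthesis gene Pcyt1a (67.3 and 23.1 CPM) completed the 5 largest falls. The type 2 effector genes were uneven. Il5, the eosinophil growth factor gene, was at 0, 7.60, 52.0 and 329 CPM in control and 20.3 and 11.1 CPM in chronic colitis, and Calca, which encodes the neuropeptide CGRP, at 114, 60.8, 3424 and 5724 CPM and at 561 and 311 CPM. Both overlapped across all groups and were highest in the high control groups. Il13 (83.9 and 78.7 CPM) and the epithelial growth factor gene Areg (640 and 831 CPM) also overlapped. Of 12 receptor genes 1 was lower (-0.13) and of 10 identity and metabolism genes 1 was lower (-0.24), and 1 of 9 glucocorticoid-responsive genes was lower (-0.31), with Gata3 at 835 and 699 CPM and Il1rl1 at 587 and 494 CPM. Of the 31 ILC2 genes of 1 lineage that were 2-fold lower without overlap (0.594%), 27 were lower in APPNL-G-F mice too (87.1%), where 56% of all genes tested were lower.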

How the data were processed

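Per the labels and the study's methods, libraries were made with a 5′ single-cell kit and sorted CD45.2+ cells pooled by hashtag. The authors counted UMIs per gene and barcode with Cell Ranger, and the deposited matrices hold these raw counts, unfiltered, with the hashtag counts beside them. Submitters' processing notes name Cell Ranger 6.1.2 and mm10, and the matrix header names Cell Ranger 4. The intravenous CD45 label is not among the counted features. Cells, gates, CPM and log2 ratios were computed as the results describe, with Python 3.11.15, numpy 2.4.6, scipy 1.17.1 and pandas 2.3.3. No doublet caller was run. Shares were also taken after thinning, within hashtag sets of low and high immediate-early expression, and without each hashtag group. Named genes were the gate genes and markers, the members of the gene lists, and in each gate the 5 largest rises and 5 largest falls among genes with at least 50 UMIs and 50 CPM whose hashtag groups (of at least 20 gate cells) did not overlap. Genes named on their place among the libraries, the MHC class II genes of neutrophils and the macrophage genes Lrg1, Il1r2 and Thbs1 were chosen after their values were seen. The comparison, lists and rules were chosen with earlier results of these data known. The count step was tested on simulated data. Of the other libraries only levels are used, and WT acute colitis and food allergy were not compared with WT control.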

Additional observations from a re-analysis of the deposited data

Results flagged for a closer look

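The differences in cell shares between WT chronic colitis and WT control had opposite signs in the low and the high set of hashtag groups for 5 gates. For T cells they were 31.4 points in the low set and -10.9 points in the high set. For B cells they were -13.5 and 6.66 points, for NK cells 5.44 and -2.77 points, and for macrophages 1.69 and -4.13 points. For ILC2 they were 1.58 points (-0.148 to 4.01) and -0.564 points (-1.71 to 0.563), each with an interval that includes 0. The difference between the sets was not tested, and the low set of chronic colitis is 1 hashtag group.

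Signal was also present outside the gates. In cells of no gate the summed neutrophil markers stood at 8006 CPM in control and 19391 CPM in chronic colitis, and the fibroblast markers at 49.4 and 105 CPM. In empty droplets S100a8 stood at 1769 and 10837 CPM, Elane at 571 and 2388 CPM, and Igkc at 1457 and 9385 CPM.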

How the results depend on the processing

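Of 3416 log2 ratios of 232 named gene and gate pairs under other settings, 2901 kept their direction and moved by less than 1 SD between hashtag groups, 503 moved by more and 12 reversed. The T cell share difference was 1.97 points as a mean over hashtag groups and 31.4 in the low set; B cells gave -13.5, NK cells 5.44 and macrophages 1.69 in the low set. ILC2 gave -0.105 after thinning to 1000 UMIs and -0.564 in the high set, macrophages -4.13 in the high set, and neutrophils 9.02 as a share of gated cells. Without each hashtag group in turn, the differences ran from -13.3 to 0.674 for T, -1.63 to 10.4 for B, -3.03 to 0.0569 for NK, -0.521 to 5.34 for ILC2, -3.21 to -0.122 for macrophages and -0.198 to 6.099 for neutrophils. The sign turned for T, NK and neutrophils without chronic hashtag 6 and for B and ILC2 without chronic hashtag 7.

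Counts of genes at 2-fold depended on the pseudocount, depth and minimum of UMIs. With a pseudocount of 1 CPM they were 224 higher and 136 lower in T, 248 and 133 in B, 790 and 309 in neutrophils, and 159, 165 and 356 lower in NK, ILC2 and macrophages. With 50 CPM they were 67 and 12 in T, 78 and 35 in B, 48 and 14 in NK, 48 and 22 in ILC2, 64 and 60 in macrophages, and 115 and 92 in neutrophils. Thinned to 1000 UMIs they were 54 higher in T, 75 and 39 in B, 37 and 25 in NK, 38 and 40 in ILC2, 25 and 24 in macrophages, and 24 and 42 in neutrophils. With at least 200 UMIs they were 57 and 23 in NK, 50 and 32 in ILC2, 66 and 82 in macrophages and 194 higher in neutrophils, and with no minimum 139 lower in ILC2. With the median set to 0 they were 138 and 29 in NK, 53 lower in ILC2 and 100 lower in macrophages. Mean CPM over hashtag groups gave 611 and 306 in neutrophils, and the low and high sets gave 59 and 78 lower in T. Leaving out cells of other lineages, added after seeing the data, gave 85 and 20 in T and 78 and 129 in macrophages. Leaving out genes under 1000 bases, also added then, gave 91 and 17 in T, 83 and 19 in B, 33 lower in NK, 50 and 49 in ILC2, 88 lower in macrophages, and 603 and 108 in neutrophils. Without 1 hashtag group the higher counts ran from 115 to 146 in T, 117 to 180 in B, 79 to 109 in NK, 71 to 105 in ILC2, 100 to 129 in macrophages and 262 to 791 in neutrophils. The lower counts ran from 32 to 62 in T, 52 to 82 in B, 53 to 101 in NK, 52 to 114 in ILC2, 188 to 239 in macrophages and 166 to 388 in neutrophils. The largest shifts came without chronic hashtag 5 in T (62 lower), chronic hashtag 7 in NK (101 lower), control hashtag 7 in ILC2 (52 lower) and control hashtag 6 in neutrophils (791 higher).

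The log2 ratio reversed in T cells of the low set for Il17a (0.074), Pdcd1 (0.39) and Zbtb16 (0.26), in B cells for Igha (0.34) without cells of other lineages and Rag1 (0.25) in the high set, and in macrophages for Ube2c (-0.38) without cells of other lineages. Without 1 hashtag group it ran from -3.43 to 0.40 for Cma1 and from -0.047 to 6.00 for Ighg1 in B cells, from -2.69 to 0.10 for Dgat2 in ILC2, from -0.048 to 7.78 for Igha and -0.14 to 1.55 for Ube2c in macrophages, and from -0.48 to 4.04 for Gm11505 in neutrophils. Control hashtag 7 turned Cma1 and Dgat2, and chronic hashtag 6 turned the others. The cause was not tested.

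No paired analysis was possible because the labels give no replicate numbers and there is 1 library per condition. Counting error cannot show the spread between animals, and with 71 chronic macrophages of 1 lineage, genes of low level rest on few UMIs.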
